A study of Mus musculus with 45 samples.

Results

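Array comparative genomic hybridization, which compares the DNA dose of a tumor with that of a reference at many positions of the genome, was available for 5 BRCA1-/-;p53+/- and 6 p53-/- mammary tumors, 11 of the 45 tumors of the series. They are called BRCA1-/- and p53-/- tumors below, the former always with p53+/-. They were chosen by the mouse model given in their labels. The BRCA1-/-;p53+/- tumors arose in mice with floxed BRCA1, deleted by a Cre recombinase under the MMTV promoter, which acts mainly in mammary epithelium, and with 1 inactive p53 allele. The p53-/- tumors carried floxed p53 with the same MMTV-cre and are labelled as transplants, while those labelled BRCA1fl/fl;p53+/-;MMTV-cre are not. All are labelled primary invasive tumors of female mice, with neither ages nor strains given, and each was hybridized once on an Agilent 44K array against pooled spleen DNA. BRCA1 and p53 are thus each inactivated in a different way in the models, and the transplant step, the slides and the scan dates differ along with them. The 5 BRCA1-/-;p53+/- arrays lay on 3 slides and the 6 p53-/- arrays on 2, with 0 slides and 0 scan dates in common, so that model, transplantation, slide and scan date cannot be told apart.

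BRCA1 is needed for homologous recombination, the pathway that repairs broken DNA by copying the sister strand, and cells without it join breaks by less accurate routes. p53 halts or kills cells with damaged DNA or a wrong number of chromosomes. Loss of either protein is known to be followed by changes in copy number in mammary tumors. The comparison asks whether tumors of the models differ in how much of the genome is altered, in which form, and at which genes. A gain or loss here is a segment, a run of at least 5 neighbouring probes, with a mean log2 ratio of at least 0.2 in size. A log2 ratio of 0 is the median of the autosomes of the same tumor, so every value is relative to that tumor's own typical dose. Because a tumor also holds normal cells, a shallow ratio cannot be told apart from a change present in few cells.

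The targeted genes were examined first. The Brca1 probe at 101340828 to 101340887 of chromosome 11 (mm8) had log2 ratios of -4.69 in Brcap53_503, -3.58 in Brcap53_682, -5.14 in Brca_14, -1.69 in Brca_42 and -4.76 in Brca_54. In p53-/- tumors the same probe lay between -0.20 and 0.26, and in the 34 tumors of the other models between -0.64 and 0.78. All 5 BRCA1-/- tumors were therefore far below every other tumor, with Brca_42 the least depleted. In the other 4 the tumor channel at this probe was not well above background, so their ratios are limited by the background and the true depletion may be deeper. The separation of the 5 from the 6 p53-/- tumors had p = 0.00433 (exact permutation test, two-sided), the smallest p this design allows, and no mean difference is given because of that limit. The other Brca1 probe, at 101314063 to 101314118, was not depleted, with values from 0.15 to 0.81 in BRCA1-/- and from -0.16 to 0.38 in p53-/- tumors. Whether either probe lies in the floxed part of the gene was not established. The depletion appears as a loss in the tumor only if Cy3 is taken as the tumor channel, whereas the labels name Cy5. In 97.4% of the 431 deposited intervals of these 11 tumors with at least 3 probes and at least 0.2 in size, the sign was that of Cy3 over Cy5. All directions are given on that basis, chosen after the values were seen. With the dyes as labelled every gain would be a loss. Both Trp53 probes (chromosome 11, 69396256 to 69396315 and 69399814 to 69399873) stayed between -0.64 and 0.58 in all 11 tumors. They show no deep deletion in the p53-/- model, and probes outside a deleted part would not show one.

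Some arrays stood apart before any comparison. Noise per probe, as an SD estimated from neighbouring probes, was 0.449 in P53_2979 and 0.476 in P53_5809, above the 0.197 to 0.268 of the other p53-/- arrays and the 0.1998 to 0.359 of the BRCA1-/- arrays. The profiles of 1 Mb bins of these 2 tumors were also the most alike of all 55 pairs (Pearson's r = 0.72 across bins, which are not independent), although they lay on different slides. Single probes that differed by at least 2 from the running median of 11 probes numbered 93 to 393 in BRCA1-/- and 273 to 407 in p53-/- tumors, with a range of 3 to 381 and a median of 27 in the 34 other tumors. P53_2979 and P53_5809 shared 221 of them, deviating the same way. P53_1573, P53_5817, P53_5851 and P53_8546 shared 234 to 319 in each pair, but only 28 to 65 with P53_2979 or P53_5809. Sharing also crossed the models, with 12 to 175 in pairs across models and 25 to 154 in pairs of BRCA1-/- tumors. Of 223 probes that deviated in all 4 of these p53-/- tumors, 115 did so in a BRCA1-/- tumor and 35 in P53_2979 or P53_5809. The p53-/- group thus held tumors with at least 2 patterns of deviating single probes, and values that move by much when P53_2979 and P53_5809 are left out are also given without them, a choice made once the data had been seen. The labels give neither the strain or donor of the tumors nor the strain of the reference, so at single probes and in small regions an inherited difference from the reference cannot be told apart from a change in the tumor. Such isolated probes were pulled in before segmentation. Signal over background was lower in every BRCA1-/- than in any p53-/- array for Cy5 (3.60 to 4.95 against 5.08 to 7.96 times), overlapped for Cy3 (3.68 to 8.76 against 7.82 to 10.5 times), and 97.0 to 99.7% of probes were well above background. Between 122 and 712 spots had a ratio of exactly 0 in BRCA1-/- arrays, where p53-/- arrays had 32 to 69. The part of these differences in the results below was not tested.

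The altered share of the genome varied widely within both models. The altered share of the 2057 autosomal bins was 8.99% in Brcap53_503, 40.4% in Brcap53_682, 56.6% in Brca_14, 15.3% in Brca_42 and 62.2% in Brca_54. In p53-/- tumors it was 80.2% in P53_1573, 62.9% in P53_2979, 62.3% in P53_5809, 26.2% in P53_5817, 26.5% in P53_5851 and 71.8% in P53_8546. Each model held tumors with under 30% and tumors with over 50% of the genome altered, and the groups overlapped widely. The means were 36.7% ± 23.9 (SD, n = 5) and 55.0% ± 23.1 (SD, n = 6), a difference of -18.3 percentage points that did not pass the test (exact permutation test, p = 0.208, adjusted p = 0.346 over 10 measures of the whole genome). Without P53_2979 and P53_5809 the difference was -14.5 points. It ranged from -24.6 to -11.3 points when 1 tumor was left out, and was -6.86 points with the deposited intervals.

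Gains and losses each ranged widely within both models. Gained bins made up 2.14 to 25.3% of the genome in BRCA1-/- and 9.24 to 44.4% in p53-/- tumors, with a difference of means of -11.9 points (exact permutation p = 0.156, adjusted p = 0.346) that was -6.24 points without P53_2979 and P53_5809. Lost bins made up 6.85 to 36.9% and 12.8 to 44% (difference -6.41 points, exact permutation p = 0.429, adjusted p = 0.595), and this difference ranged from -10.5 without Brca_54 to -2.97 without Brcap53_503 when 1 tumor was left out. Neither passed the test. The sign of the difference in losses depends on where 0 is set: with each array centred on the peak of its density in place of the median it was 0.63 points.

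Segment counts overlapped as well. BRCA1-/- tumors had 44, 57, 57, 33 and 69 autosomal segments in the order above and p53-/- tumors 66, 29, 38, 57, 68 and 59, with a difference of means of -0.83 (exact permutation p = 0.948, adjusted p = 0.948). With isolated deviating probes left as they were (tried only once the data had been seen), the difference was -116 segments and still did not pass (exact permutation, adjusted p = 0.373), so its size depends on how those probes are treated. The lowest counts among p53-/- tumors, 29 and 38, were those of the noisiest arrays, P53_2979 and P53_5809, and without them the difference was -10.5. The sign of the difference turned with only probes well above background on all arrays (4.73), with a stricter limit for splitting segments (2.37) and without Brca_42 (3.92). The median length of an altered segment was 4.96 to 20.7 Mb in BRCA1-/- and 0.773 to 69.7 Mb in p53-/- tumors (difference -10.9 Mb, exact permutation p = 0.476, adjusted p = 0.595), and without the same pair the difference turned to 4.78 Mb. P53_5851, with the shortest median of the 11, carried several small segments on chromosomes 6 and 15, described below.

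**Figure D1:**
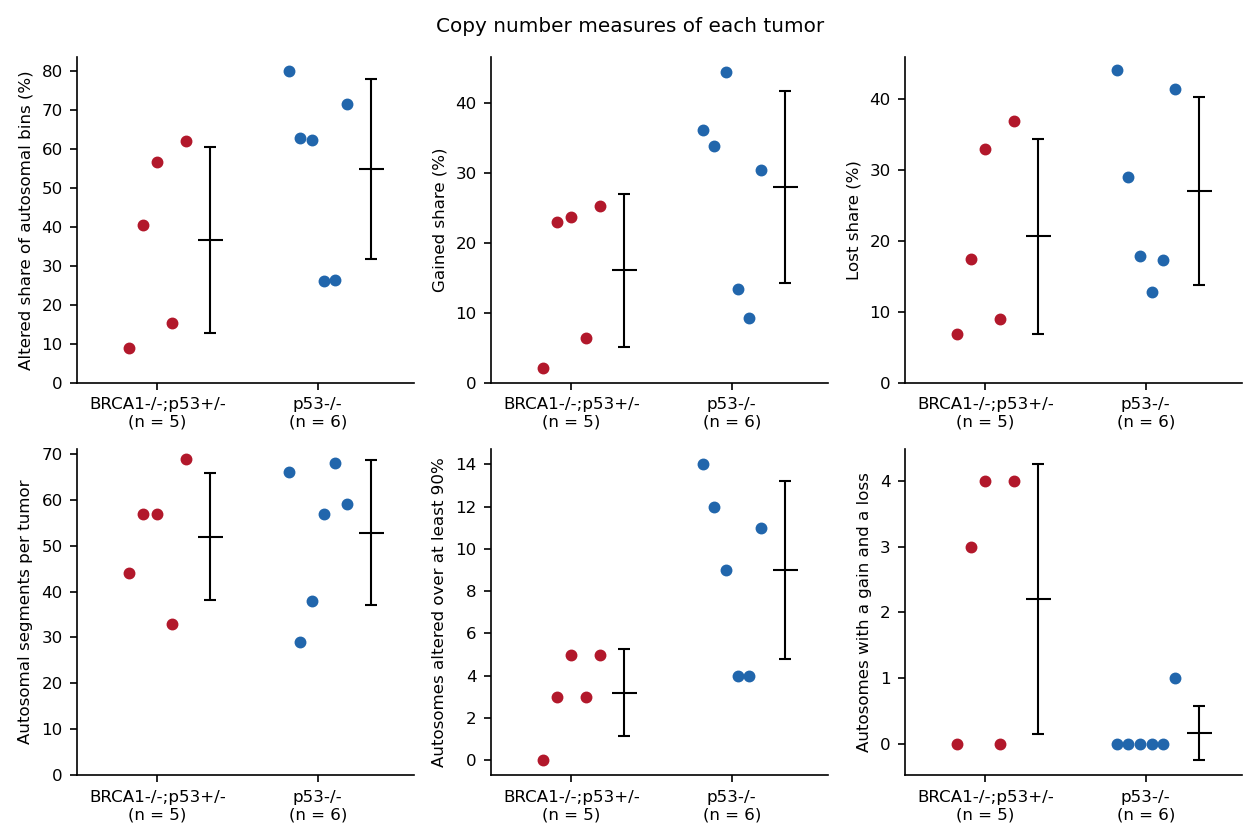
Each point is 1 tumor, red for BRCA1-/-;p53+/- (n = 5) and blue for p53-/- (n = 6), and the bar beside the points gives the mean and SD. The panels show the altered, gained and lost share of autosomal bins in percent, the number of autosomal segments, the number of autosomes altered one way over at least 90% of their probes, and the number with a gain and a loss of at least 10% of their probes each. The groups overlap in the upper panels, whole altered autosomes reach 14 in p53-/- and 5 in BRCA1-/-;p53+/- tumors, and autosomes with a gain and a loss number 11 in BRCA1-/-;p53+/- tumors and 1 in p53-/- tumors.

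Changes of whole autosomes were counted more often in p53-/- tumors, though the difference did not pass the adjusted test. Autosomes gained or lost over at least 90% of their probes, called whole here, numbered 0 in Brcap53_503, 3 in Brcap53_682, 5 in Brca_14, 3 in Brca_42 and 5 in Brca_54. Among p53-/- tumors there were 14 in P53_1573, 12 in P53_2979, 9 in P53_5809, 4 in P53_5817, 4 in P53_5851 and 11 in P53_8546. The count in P53_1573 depends on where 0 is set, as its log2 ratios were densest at -0.26. No BRCA1-/- tumor exceeded 5, while 4 of 6 p53-/- tumors had 9 or more, and the rest lay in the range of the BRCA1-/- tumors. In all there were 16 whole changes in the 5 BRCA1-/- tumors and 54 in the 6 p53-/- tumors. Of the altered bins, 43.4% ± 34.1 (SD, n = 5) lay on such autosomes in BRCA1-/- and 80.2% ± 13.2 (SD, n = 6) in p53-/- tumors. The groups overlapped in this share through Brca_42. It was 0, 39.4, 46.3, 95.2 and 36.1% in the BRCA1-/- tumors, in the order above, and 65.0 to 98.8% in the p53-/- tumors. The difference was -5.80 whole autosomes (exact permutation p = 0.0433) and -36.8 percentage points of the altered bins (exact permutation p = 0.0390), but neither passed after adjustment over the 10 measures (adjusted p = 0.216 for both). With normexp background correction, which starts from the unprocessed signals, the share of altered bins on whole autosomes differed by -57.3 percentage points and passed (exact permutation, adjusted p = 0.0433), while the number of whole autosomes did not (-6.03, adjusted p = 0.0649). Without P53_2979, in which 98.8% of the altered bins lay on whole altered autosomes, and P53_5809, the differences were -5.05 and -33.9. With arrays centred on their density peak they were -4.93 and -41.3 (exact permutation, adjusted p = 0.195 for both). These measures and the next were added to the comparison after the values had been seen.

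Autosomes that carried a gain and a loss at once, each over at least 10% of the probes, were counted more often in BRCA1-/- tumors. Brcap53_682 had 3 of them (chromosomes 11, 12 and 13), Brca_14 had 4 (chromosomes 4, 6, 8 and 11) and Brca_54 had 4 (chromosomes 4, 6, 8 and 11), while Brcap53_503 and Brca_42, the least altered tumors of the model, had 0. In p53-/- tumors the count was 1, chromosome 3 of P53_8546. The difference of 2.03 per tumor did not pass the test (exact permutation p = 0.121, adjusted p = 0.346). It shrank to 0.47 with normexp and to 0.60 with a threshold of 0.3 for gain and loss, and the 11 instances in BRCA1-/- came from 3 of 5 tumors. Chromosome 4 of Brca_14 shows the pattern: its segments had means of 0.47 up to 86797218, -0.28 from 87171323 to 136331280 and 0.47 from 136428576 to the end. Chromosome 4 of Brca_54 was at -0.30 up to 104303938 and then gained, at 0.70 from 134525256 on. In P53_1573 the mean of the whole chromosome 4 was -0.25, and in P53_8546 it was -0.26.

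**Figure D2:**
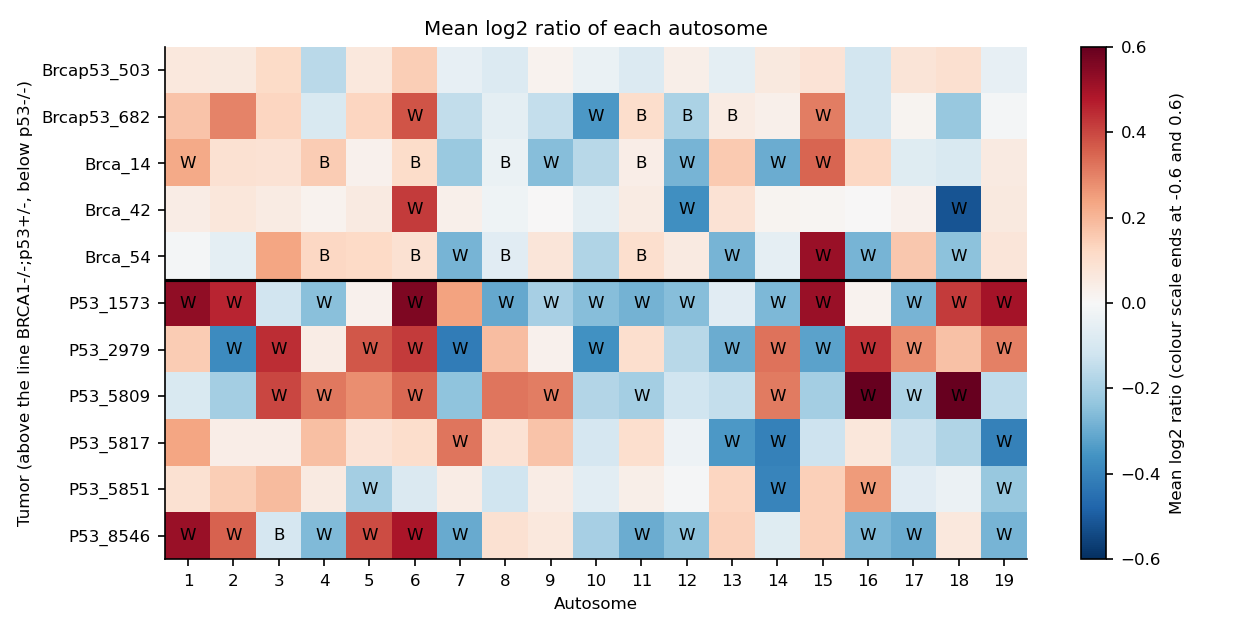
The mean log2 ratio of each autosome (columns) in each tumor (rows), in colour from blue (lower in the tumor) to red (higher), with BRCA1-/-;p53+/- tumors above the line and p53-/- tumors below it. W marks an autosome altered one way over at least 90% of its probes and B one with both a gain and a loss of at least 10% of its probes. W stands 16 times above the line and 54 times below it, and B 11 times above and 1 time below.

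Chromosome 11 holds both targeted genes and changed level along its length in 4 of 5 BRCA1-/- tumors, 3 of which had a lost stretch in the proximal part and a gained distal part. In Brca_14 the loss followed a gain of the first stretch, from 3100146 to 21050198 (mean 0.32). In p53-/- tumors it was either lost from end to end or not altered over most of its length. Up to 70 Mb the mean log2 ratio was -0.22 in Brcap53_503, -0.33 in Brcap53_682, -0.14 in Brca_14, 0.05 in Brca_42 and -0.21 in Brca_54. Beyond 100 Mb the same tumors were at -0.0012, 0.68, 0.45, 0.07 and 0.37. Brcap53_682, Brca_14 and Brca_54, where the distal part was a called gain, were higher there than in the proximal part, whose mean in Brca_14 takes in both its gain and its loss. Brcap53_503 was lost proximally and near 0 distally, and Brca_42 was at about the same level at both ends. Among p53-/- tumors the proximal and distal means were -0.29 and -0.29 in P53_1573, 0.12 and 0.04 in P53_2979, -0.18 and -0.29 in P53_5809, 0.10 and 0.09 in P53_5817, 0.04 and 0.01 in P53_5851, and -0.30 and -0.30 in P53_8546. The 3 tumors with the whole chromosome lost were P53_1573, P53_5809 and P53_8546. In P53_1573 this level was close to that tumor's density peak of -0.26, so the call depends on where 0 is set.

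The region beyond 100 Mb was at 0.31 ± 0.28 (SD, n = 5) in BRCA1-/- and -0.12 ± 0.19 (SD, n = 6) in p53-/- tumors, a difference of 0.44 (exact permutation p = 0.0303). The limits of 70 and 100 Mb were set after the profiles had been seen, so this p describes a chosen region. The whole chromosome had a mean of 0.04 ± 0.08 (SD, n = 5) against -0.09 ± 0.19 (SD, n = 6), a difference that did not pass the test (exact permutation p = 0.160, adjusted p = 0.617 over 19 autosomes). Of all autosomal bins, those gained in at least 3 of 5 BRCA1-/- tumors and in no p53-/- tumor formed a single run of 19 bins (0.924%), from 102000001 to 122000000 of chromosome 11. In the opposite direction, 128 bins (6.22%) were gained in at least 3 of 6 p53-/- tumors and in no BRCA1-/- tumor. Losses in at least 3 tumors of 1 model and none of the other covered 61 bins (2.97%) for BRCA1-/- and 183 bins (8.90%) for p53-/- tumors. Jmjd6 at 116653510 to 116653569, the histone demethylase gene on which the study centres, lies in the gained run, and its probe was at -0.25, 0.77, 1.12, 0.48 and 0.49 in the BRCA1-/- tumors and from -0.37 to 0.74 in the p53-/- tumors. The groups overlapped at that single probe (difference 0.29, exact permutation p = 0.329).

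The proximal loss ended at different points. The lost segment ended at 72226147 in Brcap53_503 (mean -0.24), at 74648789 in Brcap53_682 (mean -0.34) and at 72258806 in Brca_54 (mean -0.22). In Brca_14 it ran from 21118997 to 67124837 (mean -0.32). Trp53, the p53 gene of mice, lay in a lost segment in 3 of 5 BRCA1-/- tumors and, as part of the loss of the whole chromosome, in 3 of 6 p53-/- tumors. The loss stopped short of it in Brca_14 and was absent from Brca_42, whose chromosome 11 was 1 segment with a mean of 0.04. Rad50, part of the complex that binds broken DNA ends, Map2k4, a stress kinase gene, and Ccng1, a p53 target, lay in lost segments in 4 of 5 BRCA1-/- and 3 of 6 p53-/- tumors. On the distal side, Brca_14 turned to a gain at 102222301, beyond Brca1, with a further step to 1.21 from 120260677 to 120580940, while in Brcap53_682 and Brca_54 the gain began proximal to Brca1. Brip1 and Rad51c, genes of homologous recombination, Ppm1d, a phosphatase that counters p53, and Erbb2, a growth factor receptor, were in gained segments in 2 of 5 BRCA1-/- tumors and in lost segments in 3 of 6 p53-/- tumors.

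**Figure D3:**
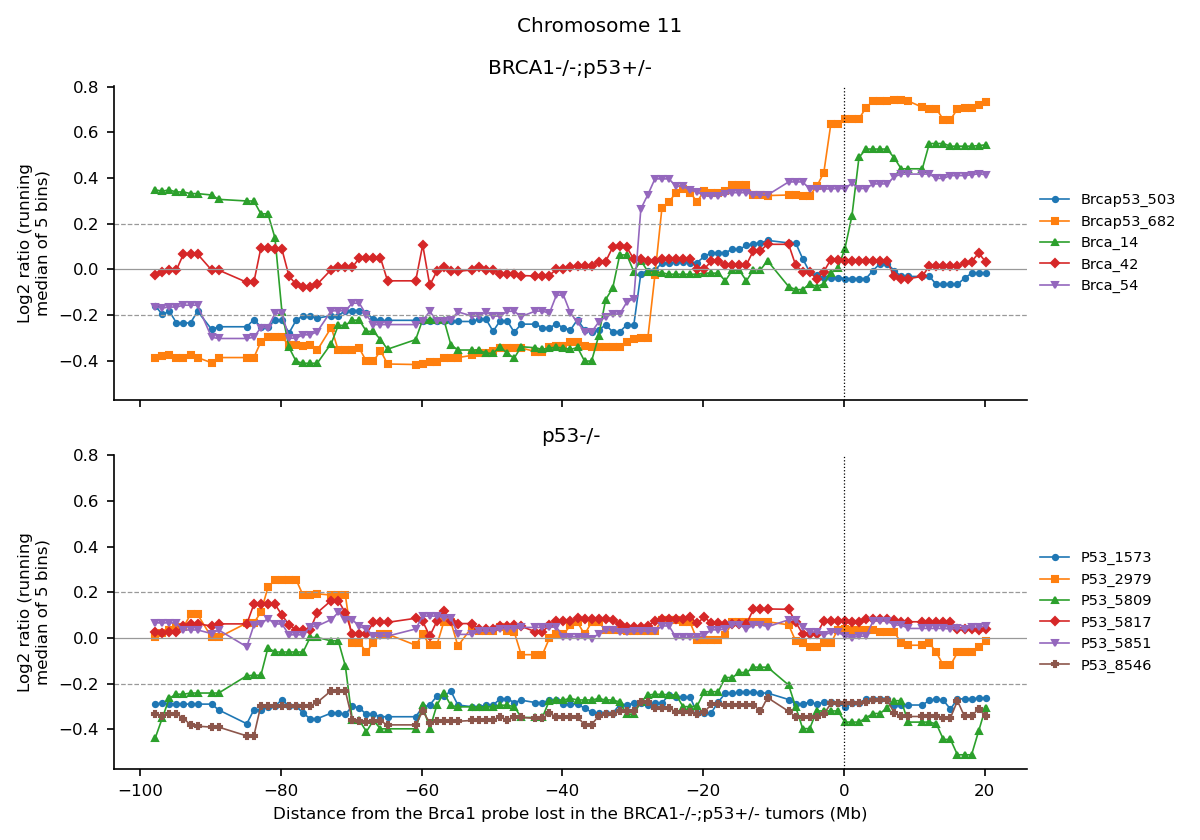
Running median over 5 bins of the log2 ratio along chromosome 11, against the distance in Mb from the depleted Brca1 probe (dotted line), with 1 line per tumor and dashed lines at -0.2 and 0.2. In the upper panel 3 BRCA1-/-;p53+/- tumors rise above 0.2 at the right end after a stretch below -0.2, and in the lower panel no p53-/- tumor passes from loss to gain, P53_1573 and P53_8546 stay below 0, and P53_5809 falls at the right end, where its segment mean steps from -0.20 to -0.41.

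No autosome passed the test as a whole. Of 19 autosomes tested for their mean log2 ratio, 0 (0%) passed at an adjusted p of 0.05 by exact permutation, and only chromosome 18 had an unadjusted p under 0.05. Its mean was 0.10, -0.23, -0.09, -0.52 and -0.25 in the BRCA1-/- tumors and 0.42, 0.18, 0.67, -0.18, -0.04 and 0.07 in the p53-/- tumors, in the order used above. It was lost in 3 of 5 BRCA1-/- and no p53-/- tumor, and gained in 2 of 6 p53-/- tumors. The difference was -0.38 (exact permutation p = 0.0433, adjusted p = 0.617), and -0.27 without P53_2979 and P53_5809. Smad4, which carries signals of the TGF-beta family, and Apc, an inhibitor of Wnt signals, both tumor suppressors on this chromosome, had differences of -0.81 ± 0.23 (SE) and -0.52 ± 0.16 (SE), neither of which passed (limma, adjusted p = 0.122 and 0.141).

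No count of gained or lost chromosomes passed the test either. Of 38 counts compared by Fisher's exact test, a gain and a loss count for each autosome, 0 (0%) passed at an adjusted p of 0.05 and 0 had an unadjusted p under 0.05, the smallest being p = 0.0606. Chromosome 6 was gained in 5 of 5 BRCA1-/- and 5 of 6 p53-/- tumors, more often than any other autosome in either model, and chromosome 10 was lost in 3 of 5 and 3 of 6. Chromosome 15, which carries Myc, was gained whole in 3 of 5 BRCA1-/- tumors, Brcap53_682, Brca_14 and Brca_54, and in 1 of 6 p53-/- tumors, P53_1573. Its mean differed by 0.23 (exact permutation p = 0.190, adjusted p = 0.617). Chromosome 16 was gained in 1 of 5 and 4 of 6 (difference -0.28, exact permutation p = 0.130, adjusted p = 0.617), and chromosome 17 was lost in no BRCA1-/- tumor and 3 of 6 p53-/- tumors, with a gain of the whole chromosome in P53_2979. Chromosome 19 was lost in no BRCA1-/- and 4 of 6 p53-/- tumors but gained whole in the other 2, P53_1573 and P53_2979, so that its mean differed by only 0.067 (exact permutation p = 0.697, adjusted p = 0.946). Without P53_2979 and P53_5809 the differences of chromosomes 15 and 16 shrank to 0.08 and -0.09.

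**Figure D4:**
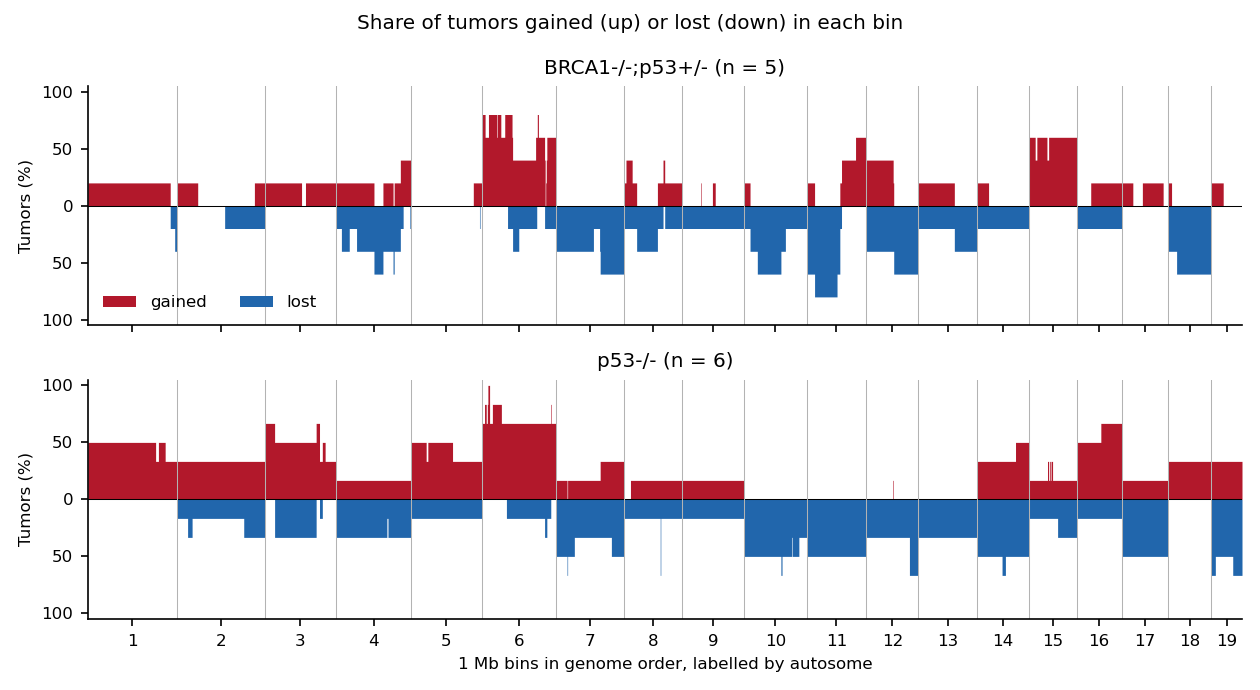
Percent of tumors gained (red, upward) or lost (blue, downward) in each 1 Mb bin in genome order, with grey lines between autosomes, for BRCA1-/-;p53+/- (n = 5, upper panel) and p53-/- tumors (n = 6, lower panel). Both panels hold blocks that span whole autosomes and steps inside autosomes, and in the upper panel chromosome 11 passes from loss to gain.

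No bin passed the test in the fit over all bins. With limma, 0 of 2057 bins (0%) were higher and 0 (0%) lower in BRCA1-/- tumors at an adjusted p of 0.05, and 194 bins (9.43%) had an unadjusted p under 0.05, 95 of them higher and 99 lower. The smallest adjusted p was 0.0665, for the bin from 111000001 to 112000000 of chromosome 1, which held 4 probes. Its log2 ratio was -0.04, 0.48, 0.06, 0.05 and -1.22 in BRCA1-/- and 0.73, 1.30, 0.99, 0.95, 0.43 and 1.31 in p53-/- tumors. The fits with all 45 arrays, which estimate the spread from every model, called 14 bins higher and 18 lower. With slide or scan date as a random block there were 0 higher and 1 lower.

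Genes were tested as means of their probes. Of 20069 genes, 38 were higher (0.189%) and 52 lower (0.259%) in BRCA1-/- tumors by limma at an adjusted p of 0.05, together 0.448%. With arrays centred on their density peak 16 were higher and 36 lower, with normexp 1 was higher and 0 lower, and with probes well above background on all 11 arrays 40 were higher and 33 lower. The count ranged from 27 to 149 when 1 tumor was left out and was 524 with slide as a random block. Most of these calls rested on few probes: 55 of the 90 genes had a single probe, and only 3 lay in a 1 Mb bin whose difference had the same sign and at least 50% of the size. Camk4, a calcium-dependent kinase gene with 4 probes on chromosome 18, was 1 of these 3, with a difference of -1.01 ± 0.21 (SE). Among the calls with the smallest adjusted p, picked after their values were seen, Gprc5d was at 1.78 to 2.64 in all BRCA1-/- tumors and at -0.87 to 0.50 in the p53-/- tumors. Tox3 was at -1.85 to -0.45 and 0.47 to 1.1, while the means of the segments over these genes differed by no more than 0.05 in size. Of the 90 genes, 14 held a spot with a ratio of exactly 0 in some tumor. Without P53_2979 and P53_5809 there were 315 calls. Of the 133 genes from 11 lists of repair, cell cycle, growth factor and tumor suppressor genes that had a probe, 1, Brca1, was called lower and 0 higher. The call averages the depleted, background-limited probe and the undepleted one, so the size of the difference in this fit is not given. The call was lost with normexp (-0.19, limma adjusted p = 0.455) and with probes well above background on all arrays, a filter that removes the depleted probe (0.34, limma adjusted p = 0.307). The median difference of the 133 was -0.02, beside -0.01 over all genes tested. Atm, a kinase that signals broken DNA, came next, with log2 ratios of -0.22, -0.24, -0.48, -0.56 and -0.43 against -0.27, 0.31, 0.62, 0.64, 0.10 and 0.28, a difference of -0.66 ± 0.17 (SE) that did not pass (limma adjusted p = 0.0901). It is a value of the gene's own probes: the mean of chromosome 9, which carries Atm, differed by only -0.13 (exact permutation p = 0.195, adjusted p = 0.617).

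How often the listed genes lay in altered segments was close to the background of all genes. In BRCA1-/- tumors 13 of the 133 listed genes were in a gained segment in at least 3 of 5 tumors, with 9.35% of all genes, and 20 in a lost segment, with 13.1% of all genes. In p53-/- tumors 27 were gained and 36 lost in at least 3 of 6 tumors, where 22.2% and 28.7% of all genes were. Of 20 measured genes of homologous recombination, 1 was gained and 3 lost in at least 3 BRCA1-/- tumors (Rad52 gained, and Rad51b, Xrcc3 and Rad50 lost), and 4 were gained and 5 lost in at least 3 p53-/- tumors, with a median difference of -0.09. None of these 20, among which Brca1 was not counted, passed the gene test. Of 14 genes of the p53 pathway, 0 were gained and 4 lost in BRCA1-/- and 3 gained and 7 lost in p53-/- tumors. The 4 were Cdkn2a, which encodes the p53 activator Arf, Pmaip1, a cell death gene, Ccng1 and Sesn1. Mdm4, an inhibitor of p53, was in a gained segment in 1 of 5 BRCA1-/- and 3 of 6 p53-/- tumors.

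Of 17 measured genes of growth factor receptors and their cascades, 4 were gained and 3 lost in at least 3 BRCA1-/- tumors, where 9.35% and 13.1% of all genes were. In at least 3 p53-/- tumors 8 were gained and 5 lost, where 22.2% and 28.7% of all genes were. Met and Braf, a kinase of the cascade, both on chromosome 6, were among those gained in both models, and the receptor genes Egfr and Fgfr2 were among those lost in both. Of 11 genes of mammary lineages 3 were gained in BRCA1-/- tumors, Krt5 of basal cells and Krt8 and Krt18 of luminal cells, neighbours on chromosome 15 that moved with the whole chromosome. The same 3 were gained in 1 of 6 p53-/- tumors and lost in 2. The remaining lists, namely cell cycle, mitotic spindle and centrosome, alternative break repair, PI3 kinase, amplified oncogenes and tumor suppressors, had 0 called genes each, with median differences from -0.13 to 0.03.

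High-level gains, segments with a mean of at least 1, included Met in both models. Met encodes the receptor of hepatocyte growth factor and drives growth and movement of epithelial cells. Its first probe (chromosome 6, 17442331 to 17442390) had a log2 ratio of 0.60, -0.03, 5.56, 0.34 and 0.06 in the BRCA1-/- tumors, in the order above, and 4.51, -0.10, -0.04, 5.41, 4.95 and 5.06 in the p53-/- tumors. The amplification was thus present in Brca_14 alone among 5 BRCA1-/- tumors (20%, with 95% limits of 0.505 and 71.6% by the exact method of Clopper and Pearson) and in 4 of 6 p53-/- tumors (66.7%, limits 22.3 and 95.7%), with nothing between 0.60 and 4.51. The counts did not pass Fisher's exact test (p = 0.242). Nor did the gene's mean pass (difference -2.04, limma adjusted p = 0.385). P53_2979 and P53_5809 were the p53-/- tumors without the amplification, so the difference of -3.72 without them follows from leaving them out and is given as a value only. The 4 amplified p53-/- tumors were those that shared 234 to 319 deviating single probes in each pair, and what part that plays was not tested.

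The extent of the amplified segment differed from tumor to tumor. It ran from 15327864 to 17778294 in Brca_14 (mean 5.34, 25 probes) and from 15327864 to 18829387 in P53_5817 (mean 5.41, 44 probes). In P53_8546 it was shortest, from 17237755 to 18022093 (mean 4.93, 16 probes), and in P53_5851 it consisted of 3 neighbouring segments from 16724617 to 21715018 with means of 3.59, 4.88 and 4.02. P53_1573 began abruptly at Met itself, from 17442331 to 18803633 (mean 4.58, 24 probes), so that Cav1, the caveolin gene next to Met, was at 0.53 and 0.59 on its 2 probes there but at 4.93 to 5.51 in the other 3 amplified p53-/- tumors. The stretch common to all 5 tumors was 17442331 to 17778294, a length of 0.336 Mb with 7 probes, in which Met, Capza2 and St7 and the transcripts AK145182 and AK045027 were named. The probes of Cftr, distal to it, were at 0.05 and 0.41 in Brca_14 and at 1.63 and 0.44 in P53_8546, and at 4.34 or more in the other 3.

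Beyond Met, chromosome 6 carried further steps in the amplified tumors. P53_8546 had separate high-level segments at 36375629 to 36988755 (mean 4.27), which holds Ptn, the gene of the growth factor pleiotrophin, at 50032007 to 50210558 (mean 4.76) and at 53522330 to 53794696 (mean 3.90). P53_1573 had 2 more distal ones, with means of 3.39 and 2.03 up to 25797893. Brca_14 had 1, from 33839983 to 35427840 with a mean of 1.05, within an arm that changed level many times. By contrast, Brca_42 and P53_5809 were raised by 0.41 and 0.33 over nearly the whole of chromosome 6 with no peak at Met. In all, segments with a mean of at least 1 numbered 0, 0, 3, 2 and 2 in BRCA1-/- and 7, 0, 0, 4, 9 and 5 in p53-/- tumors (difference -2.77, exact permutation p = 0.190, adjusted p = 0.346), and the difference was -4.85 without P53_2979 and P53_5809.

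**Figure D5:**
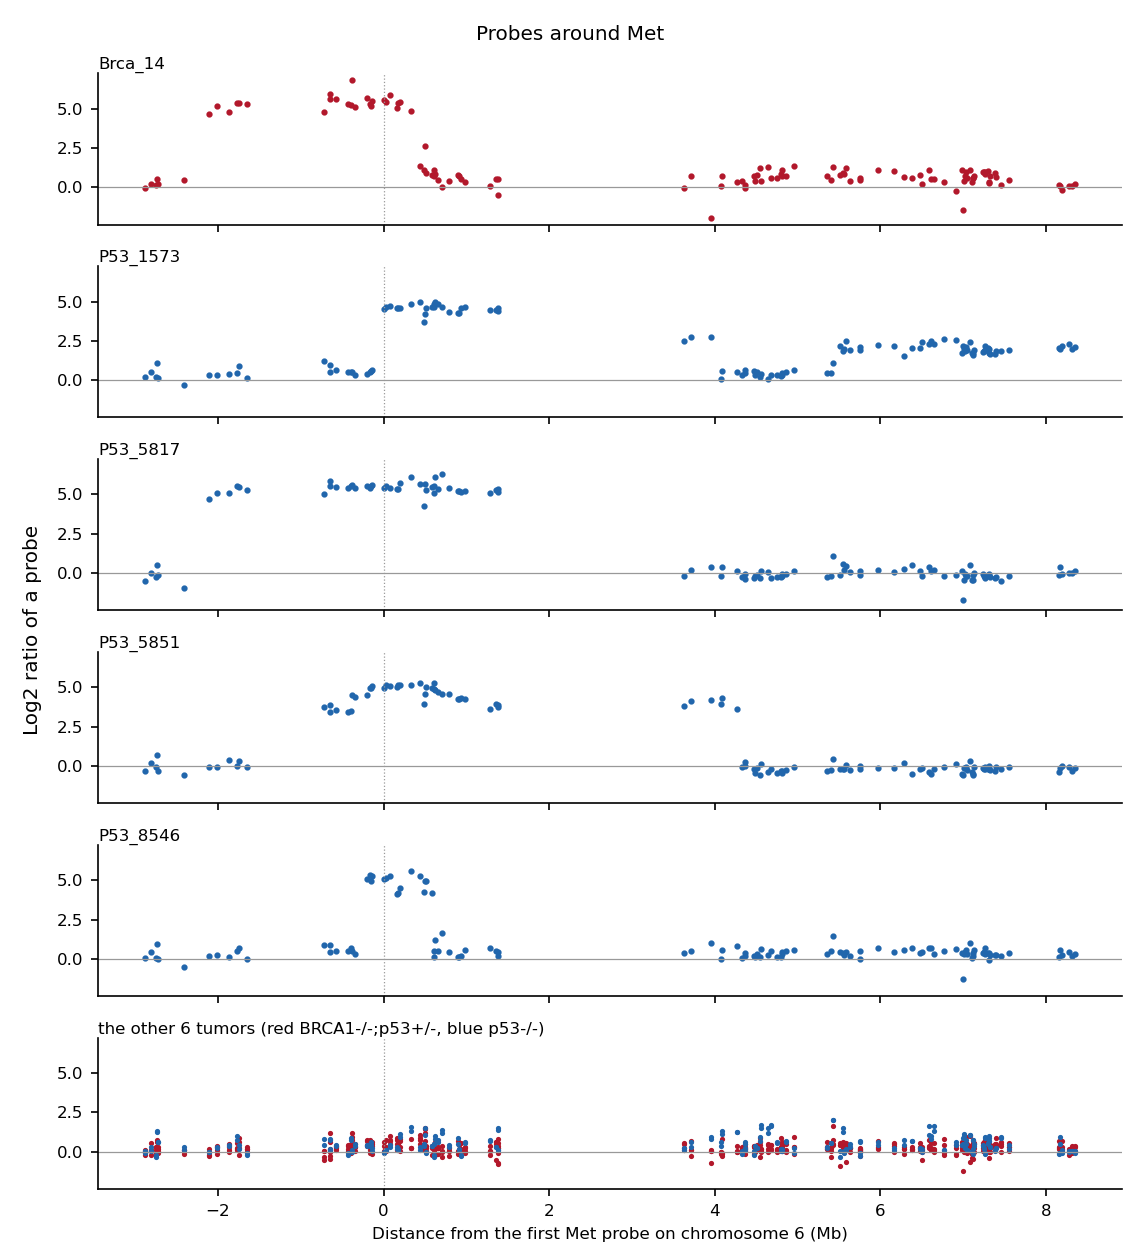
Log2 ratio of each probe against its distance in Mb from the first Met probe on chromosome 6, with 1 panel for each tumor with an amplified Met (red BRCA1-/-;p53+/-, blue p53-/-) and the remaining 6 tumors together in the lowest panel. Values near 5 surround Met in Brca_14, P53_5817, P53_5851 and P53_8546, begin at Met in P53_1573, and are missing from the lowest panel.

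Other high-level segments were private to 1 tumor or lay at the same probes in both models. P53_5851 had 4 on chromosome 15 between 47528235 and 57978535, with means of 1.58 to 2.17. Farther along that chromosome its single Myc probe (61816154 to 61816213) stood at 5.80, with a neighbour at -6.27 on one side and one at 0.21 on the other, so no segment could be called, and the 10 other tumors were between -0.68 and 0.74. The neighbour, at 61783521, was also at -5.64 to -6.21 in P53_1573, P53_5817 and P53_8546 and at 0.11 to 0.65 in the remaining 7 tumors. Brca_54 had a segment of 1.40 over beta-defensin genes, antimicrobial peptides, at 18844614 to 19496644 of chromosome 8. Its mean was above every other segment of that chromosome in the BRCA1-/- tumors.

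Small regions on chromosomes 1 and 7 were raised at nearly the same boundaries in both models. Over 6 probes of chromosome 7 from 48066915 to 48316952, which holds Mrgprb genes, a family of sensory receptors, the mean log2 ratio was 1.58, 1.70, 2.53, 2.74 and 2.64 in the BRCA1-/- tumors and 2.56, -0.56, 0.00, 2.86, 2.91 and 2.02 in the p53-/- tumors. P53_2979 and P53_5809 again stood apart from the other 9 tumors. In the 34 tumors of the other models the same probes reached at most 0.44. A region of chromosome 1 from 175569070 to 175792199, which holds the interferon-induced gene Ifi203, was above 1 in Brcap53_682, Brca_42, P53_1573, P53_5817, P53_5851 and P53_8546 and at most 0.27 in the 34 others. In both models tumors with and without the rise occurred for Ifi203, whereas the Mrgprb rise was missing from P53_2979 and P53_5809 alone.

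Tumors of 1 model had slightly more similar profiles on average than tumors of different models. Over bins, Pearson's r averaged 0.24 in the 10 pairs of BRCA1-/- tumors, with a range of 0.11 to 0.37, and 0.23 in the 15 pairs of p53-/- tumors, with a range of -0.08 to 0.72. Between models the 30 pairs averaged 0.15. The difference of 0.085 had p = 0.0476 (exact permutation test over all assignments of the tumors, one-sided), and it did not hold with Spearman's rho (0.071, exact permutation p = 0.0714) or in 7 of the 11 repeats that left out 1 tumor each. BRCA1-/- pairs were of a similar modest likeness throughout, whereas p53-/- pairs ranged from none to the likeness of P53_2979 and P53_5809, of P53_1573 and P53_8546 (r = 0.59) and of P53_5817 and P53_5851 (r = 0.58). P53_1573 and P53_8546 shared a slide, as did P53_5817 and P53_5851, and the part of the slide in their likeness was not tested. The highest values between models were those of Brca_14, whose r was 0.45 with P53_5817 and 0.42 with P53_5851. With P53_1573 and P53_8546, which also carried an amplified Met, its r was 0.32 and 0.30. What part the amplified bins play in these values was not tested.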

How the data were processed

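The authors deposited Agilent Feature Extraction output (9.5.1.1 in the file headers, 10.7 in the submitters' processing notes) for each array, with background-subtracted, dye-normalized intensity values and a log10 ratio of Cy5 over Cy3 per spot, and a table of intervals with deposited mean log2 ratios. The deposited p-values of those intervals were not used.

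Here ratios were turned to log2 of Cy3 over Cy5 and centred on the autosomal median. Outlier spots were left out and 42235 probes of mm8 kept. A probe more than 3 noise SDs from the running median of 11 was set to 2 SDs from it. Circular binary segmentation (Python 3.11.15, numba 0.67.0) accepted splits over 6 with at least 5 probes. Bins of 1 Mb needed 3 probes. Bins and genes were compared with limma 3.58.1 (R 4.3.3) and Benjamini-Hochberg adjustment, single values with two-sided exact permutation tests unless stated. The steps were tested on simulated data. The labels do not say that the tumors came from separate animals, so p-values measure the spread between these arrays, whose number limits the precision. The reference is labelled pooled spleen, while its channel also names normal mammary tissue. Of 20798 probe names, 15223 matched a RefSeq symbol. No probe is named for an immunoglobulin or T cell receptor gene, so a check of the spleen reference was not possible.

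Tumors were grouped by the model in their labels and each is 1 replicate. The members and lists were chosen with earlier results of these data known. Besides Brca1 and Trp53, listed genes were named where they passed the gene test or lay in altered segments in at least 3 tumors of a model, and further genes where they lay in called bins or in high-level segments shared by at least 2 tumors. Atm, Camk4, Gprc5d, Tox3 and other genes outside that rule were chosen after their values were seen, and Jmjd6 for the study's subject. Chromosome X, whose mean was 0.77 to 1.38 in these tumors, was left out because the sex of the reference is not given. Alternatives changed centring, background correction, filters, thresholds, segmentation, bin size, blocks and the tumors included. Some listed genes are not reported here.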

Additional observations from a re-analysis of the deposited data

Results flagged for a closer look

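One value lay far from the rest of its group, out of 60 groups of values examined, of which chance flags about 1 in 20. P53_8546 had 1 autosome with both a gain and a loss, chromosome 3, where 16.8% of the probes were gained and 65.1% lost, and the 5 other p53-/- tumors had 0.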

How the results depend on the processing

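No paired analysis was possible because the labels give no replicate numbers that tie a BRCA1-/-;p53+/- tumor to a p53-/- tumor. Differences below are BRCA1-/-;p53+/- minus p53-/-, and the causes of the changes were not tested unless named.

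With arrays centred on their density peak the difference in the lost share was 0.63 percentage points, and 52 genes were called (16 higher, 36 lower). With normexp 1 gene was called (1 higher, 0 lower) and the profile difference was 0.052 (exact permutation p = 0.152). With probes well above background in both channels on all 11 arrays the difference was 4.73 in segments, 1.1 in altered segments under 20 Mb, 0.077 in profiles (exact permutation p = 0.0693) and 0.34 for Brca1, because that filter removed the depleted, dim probe. The same filter left 73 genes called (40 higher, 33 lower). Under normexp the Brca1 difference was -0.19. The difference in segments was 0.13 with outlier spots kept and 2.37 with splits over 7. Spearman's rho gave 0.071 for the profiles. With all 45 arrays in the fit 14 bins were higher, 18 lower and 1744 genes called. A random block for slide gave 1 bin lower and 524 genes, and one for scan date 1 bin lower and 463 genes. No block held both models, and the estimated correlations within blocks were -0.094 to -0.023.

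With the dyes as labelled, the differences were -0.23, 0.28 and 0.38 for chromosomes 15, 16 and 18, 1.79 for Brca1 (a background-limited value), 2.04 for Met and 0.033 for segments with a mean of at least 1, in each case by construction or because losses then count as gains. Without P53_2979 and P53_5809, chosen after seeing the data, the median length of altered segments differed by 4.78 Mb, 2 bins were lower and 315 genes were called.

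Leaving out each tumor in turn gave differences in segments from -5.60 (without P53_2979) to 3.92 (without Brca_42), 27 (without Brcap53_503) to 149 genes (without P53_2979), 0 to 1 bins higher, 0 to 2 lower, and profile differences of 0.054 (without Brca_54) to 0.12 (without Brca_14). Differences in the altered share kept their sign, from -24.6 to -11.3 percentage points, and with the deposited intervals the difference was -6.86. Low signal over background limits the depth of deletions that can be read.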
